A study of Mus musculus with 3 samples.

Results

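The genes of 10 transcription factors of the trophectoderm, the outer epithelium of the blastocyst, were followed as mouse embryos left delayed implantation. The factors were chosen by name and are Cdx2, Eomes, Gata2, Gata3, Elf5, Tfap2a, Tfap2c, Ets2, Klf5 and Hand1. All 10 were found among the 31510 genes of each of the 3 deposited tables, 7 by symbol and 3 by Ensembl ID: Tfap2a and Tfap2c stand there as Tcfap2a and Tcfap2c, and Hand1 without a symbol. CD-1 females, 2 months old per the labels, were ovariectomized on day 4 of pregnancy and then kept on progesterone from day 5 to day 7 at 2 mg per mouse, which all 3 states share. Dormant blastocysts had no estradiol (E2) and were flushed from the uterus on day 8. Reactivating blastocysts came from mothers killed 6 h after an injection of E2 on day 7, and reactivated blastocysts from mothers killed 12 h after it. Each state was 1 library of rRNA-depleted RNA from a pool of more than 3000 blastocysts, read as 50 bp single-end SOLiD reads, so no difference between states has a replicate check and no p-value is given. The state, the hours since E2 and the day of collection change together and cannot be told apart.

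Trophectoderm forms when cells on the outside of the early embryo keep YAP in the nucleus, where it acts through TEAD4 to switch on Cdx2 and, with other inputs, Gata3. CDX2 holds the trophectoderm fate against the pluripotency factors, and EOMES, ELF5, ETS2, TFAP2C and the GATA factors work with it to keep trophoblast stem cells dividing. HAND1 acts later, in trophoblast giant cells. A whole blastocyst also holds inner cell mass and primitive endoderm, and in such bulk RNA fewer cells of a type and less RNA per cell cannot be told apart.

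The start regions of Elf5, which was higher at 12 h, and of Cdx2 and Gata3, which were lower, are shown here because the largest differences of the set lie in these genes. They are RefSeq sequences of build GRCm38.p6, each 300 bases long, from 250 bases before the annotated start of transcription to 50 bases after it, written 5′ to 3′ on the strand of the gene. Cdx2 lies at chr5:147307200-147307499 on the minus strand and Gata3 at chr2:9878551-9878850 on the minus strand. Elf5 has a pair of annotated starts on the plus strand, start 1 at chr2:103411848-103412147 and start 2 at chr2:103423818-103424117. Capitals mark matches to any of 7 short motifs searched on both strands.
Cdx2: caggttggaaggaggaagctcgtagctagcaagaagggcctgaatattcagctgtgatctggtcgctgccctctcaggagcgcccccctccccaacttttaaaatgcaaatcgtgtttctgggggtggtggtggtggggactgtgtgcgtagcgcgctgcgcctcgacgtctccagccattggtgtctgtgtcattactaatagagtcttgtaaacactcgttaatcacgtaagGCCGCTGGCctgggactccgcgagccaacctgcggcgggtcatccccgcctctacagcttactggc
Gata3: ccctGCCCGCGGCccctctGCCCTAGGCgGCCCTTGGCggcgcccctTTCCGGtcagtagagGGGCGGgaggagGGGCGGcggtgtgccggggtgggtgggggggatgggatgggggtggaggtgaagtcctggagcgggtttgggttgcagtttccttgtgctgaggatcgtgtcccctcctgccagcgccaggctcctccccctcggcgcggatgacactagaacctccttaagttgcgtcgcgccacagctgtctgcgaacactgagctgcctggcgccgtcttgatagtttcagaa
Elf5 start 1: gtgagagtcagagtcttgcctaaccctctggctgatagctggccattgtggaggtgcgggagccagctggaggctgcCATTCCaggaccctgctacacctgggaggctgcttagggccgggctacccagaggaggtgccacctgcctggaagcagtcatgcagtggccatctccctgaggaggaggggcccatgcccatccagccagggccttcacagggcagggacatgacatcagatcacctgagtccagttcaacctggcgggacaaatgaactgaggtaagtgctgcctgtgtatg
Elf5 start 2: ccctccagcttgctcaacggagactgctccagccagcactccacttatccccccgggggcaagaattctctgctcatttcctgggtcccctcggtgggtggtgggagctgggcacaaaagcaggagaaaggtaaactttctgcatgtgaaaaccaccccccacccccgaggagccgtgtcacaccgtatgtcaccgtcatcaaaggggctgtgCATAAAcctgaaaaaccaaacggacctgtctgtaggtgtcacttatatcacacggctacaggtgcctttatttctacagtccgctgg
The capitals in Cdx2 are a single match to the AP-2 motif GCCNNNGGC, which begins at position -16 from the start and which 16.6% of the 32851 RefSeq promoters of this length hold. Gata3 held 3 AP-2 matches, 1 match to the ETS motif CCGGAA (in 14.9% of all promoters) and 2 matches to the KLF and SP motif GGGCGG (in 35.7%). Start 1 of Elf5 held 1 match to the TEAD motif GGAATG, on the other strand at position -173 (in 14.7% of promoters). Start 2 of Elf5 held 1 match to the CDX motif TTTATG, also on the other strand, at position -37 (in 11.9%). None of these 4 promoters held the GATA motif AGATAA (in 11.2% of all promoters) or the T-box motif AGGTGTGA (in 1.28%). A match is a run of letters, not a measured site.

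The promoters differed in base composition. Cdx2 had 18 CpG dinucleotides in its 300 bases and Gata3 had 22, against a median of 7 over all promoters. Start 1 of Elf5 had 3 and start 2 had 10. From start 2 to the end of Elf5 are 26922 bases, and the gene length in the deposited tables is 26909 bases, against 39302 in GENCODE M21. Gata2, with a pair of starts of 32 and 29 CpG, and Ets2, with 30, had the most among the 7 factors that have an entry in the table of promoters.

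Depth rose from the dormant to the reactivated library. Exons held 9298675 reads in the dormant, 10364607 in the reactivating and 12941447 in the reactivated library. The level used throughout is RPKM, in which exon reads are divided by the length of the exons in kb and by the depth of the library. Krt8 and Krt18, the keratins of the trophectoderm, stood at 105, 97.4 and 80.4 RPKM and at 807, 834 and 624 RPKM in the dormant, reactivating and reactivated libraries. Pou5f1, which marks the inner cell mass, stood at 87.1, 125 and 124 RPKM, so the labelled blastocysts carried markers of both parts of the embryo. Of the genes that mark red blood cells, Hba-a1 and Hba-a2 had 0 reads in every library, Hbb-bs had 1, 4 and 2 exon reads, Hbb-bt 1, 2 and 3, and Alas2 12, 0 and 3.

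By RPKM, the factors were close to their dormant levels at 6 h after E2. A gene counted as higher or lower when log2((RPKM + 1)/(RPKM + 1)) was at least 1 in size, that is 2 times, with 1 RPKM or more in whichever library was higher, and 0 of 10 factors passed. Their log2 differences ran from -0.32 for Tfap2a to 0.56 for Hand1. Of the 10, 8 were below 0, beside 39.9% of protein-coding genes tested. The median of the factors was -0.20, against 0.06 over all genes tested. Of all 12126 genes tested, 2.68% were higher and 3.07% lower, and of the 9960 protein-coding genes among them 0.683% were higher and 0.291% lower.

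By 12 h the factors had parted. Elf5 was higher than in dormant blastocysts, and Cdx2, Gata3 and Klf5 were lower. These were 1 higher and 3 lower of the 9 factors tested, with Hand1 below 1 RPKM in both libraries. Among all 12037 genes tested 5.27% were higher and 7.66% lower, and among 9948 protein-coding genes 3.63% and 5.53%. The median of the 9 factors was -0.45, against -0.07 over all genes tested. Of the 9, 7 were below 0, beside 54.8% of protein-coding genes tested.

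By RPKM, most of the difference from dormant for Cdx2, Gata3, Klf5 and Elf5 lay between the 6 h and the 12 h library. Junction reads of Gata3, given below, did not follow this course. Between the reactivating and the reactivated library Elf5 was higher and Cdx2 lower, 1 and 1 of 10 factors, with Gata3 at -0.98 and Klf5 at -0.73 on the log2 scale, short of the threshold. Over all 12065 genes tested, 3.82% were higher and 7.63% lower, and over 9979 protein-coding genes 2.44% and 6.60%. The 3 comparisons share libraries and are not independent of each other.

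**Figure D1:**
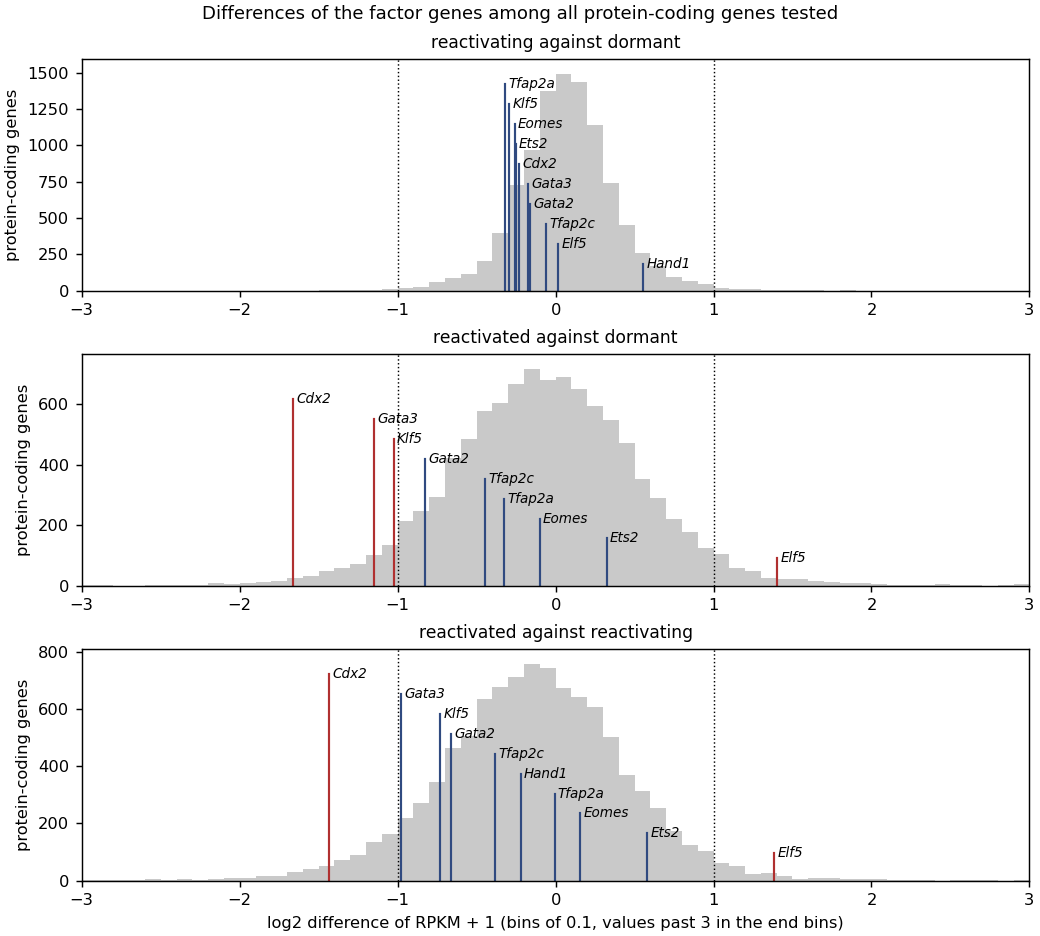
Each panel is 1 comparison: grey bars count protein-coding genes by their log2 difference of RPKM + 1, lines mark the tested factors, red past the size of 1 (dotted lines) and blue within it. At 6 h no factor is past a dotted line, and at 12 h against dormant Cdx2 (-1.66), Gata3 (-1.15) and Klf5 (-1.02) lie to the left and Elf5 (1.40) to the right.

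Cdx2 (chromosome 5, 147300805 to 147307270, minus strand, GRCm38 as in GENCODE M21) encodes the caudal-type homeodomain factor that sets the trophectoderm fate. Its level was 113 RPKM in the dormant library (3409 exon reads), 95.8 in the reactivating library (3224 reads) and 34.8 in the reactivated library (1418 reads). The reactivated value stood far below the other two, and the exact 95% Poisson intervals of the 3 values do not overlap (109 to 116, 92.5 to 99.2 and 33.0 to 36.7). These intervals, like all those given here, cover counting error only, since each state had 1 library. The reads carry no molecular identifiers, so copies of a molecule are counted as separate reads. At 12 h the ratio to dormant was 0.309 (exact 95% interval 0.291 to 0.329), a log2 difference of -1.66, and 0.774% of protein-coding genes tested lay lower. In the dormant library 110 of the 9664 protein-coding genes at 1 RPKM or more stood above Cdx2, and in the reactivated library 930 of 9362 did.

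Eomes (chromosome 9, 118478212 to 118486132, plus strand) encodes a T-box factor of trophoblast stem cells. It had 87.9 RPKM in the dormant library, 73.4 in the reactivating and 81.9 in the reactivated library, from 4581, 4249 and 5739 exon reads. The lowest value was thus that at 6 h, and the 12 h value came to 0.932 of the dormant level (0.896 to 0.969), a log2 difference of -0.10. Cdx2 and Eomes, both high in dormant blastocysts, therefore separated, and their ratio within a library, in which the library total plays no part, was 1.28 in dormant blastocysts, 1.31 in reactivating and 0.425 (0.401 to 0.451) in reactivated ones.

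Elf5 (chromosome 2, 103411688 to 103450989, plus strand) encodes an ETS-family factor that marks cells bound for the trophoblast and sustains Cdx2 and Eomes in stem cells. It had 30.1 RPKM in the dormant library (936 exon reads), 30.5 in the reactivating library (1053) and 81.3 in the reactivated library (3398). The first 2 values lie within each other's intervals (28.2 to 32.1 and 28.7 to 32.4), and the third stands above both (78.5 to 84.0). At 12 h the ratio to dormant was 2.70 (2.51 to 2.91), or 1.40 on the log2 scale, and 98.8% of protein-coding genes tested lay below. Against the reactivating library it was 2.67 (2.49 to 2.86). Cdx2 exceeded Elf5 3.74 times per length in dormant and 3.15 times in reactivating blastocysts, while in reactivated blastocysts it had 0.429 of the Elf5 level (0.403 to 0.456).

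Ets2 (chromosome 16, 95702075 to 95721051, plus strand) encodes a further ETS factor, which trophoblast needs to grow and to produce proteases. Its levels were 23.5 RPKM in the dormant library, 19.6 in the reactivating and 29.8 in the reactivated library (1135, 1049 and 1928 exon reads). Here too the last value was the highest, but at 0.33 on the log2 scale against dormant and 0.58 against 6 h it did not reach the size threshold.

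Gata3 (chromosome 2, 9857078 to 9890034, minus strand) and Gata2 (chromosome 6, 88193891 to 88207032, plus strand) encode zinc-finger factors that promote trophoblast genes beside CDX2. For Gata3 the levels were 48.0 RPKM in dormant blastocysts, 42.5 in reactivating and 21.1 in reactivated ones, from 1946, 1914 and 1151 exon reads. For Gata2 they were 23.7, 21.1 and 13.0 RPKM, from 1015, 1003 and 746 reads. Both genes had their lowest value at 12 h, at 0.440 of the dormant level for Gata3 (0.409 to 0.473) and 0.547 for Gata2 (0.497 to 0.602), and Gata3 alone of the pair passed the size rule, at -1.15 against -0.82. The ratio of Gata3 to Gata2 was 2.02 in dormant blastocysts, 2.01 in reactivating and 1.63 (1.48 to 1.79) in reactivated ones. In the deposited counts Gata3 is 21179 bases long, against 32957 in GENCODE M21, and Gata2 is 8156 against 13142. Inside the Gata3 locus of GENCODE M21 lies 9230102O04Rik on the same strand, which had 7, 12 and 0 exon reads in the 3 libraries. It lies upstream of the RefSeq start of Gata3, from which 21523 bases run to the end of the gene.

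Klf5 (chromosome 14, 99298691 to 99315036, plus strand) encodes a Krüppel-like zinc-finger factor needed for trophectoderm as well as for the inner cell mass. It was the highest of the 10 in dormant blastocysts, at 127 RPKM (3092 exon reads), and stood at 104 RPKM in reactivating (2800) and 62.0 in reactivated blastocysts (2027). Its values descend in the order of the states with intervals that do not overlap. The 12 h level was 0.488 of the dormant level (0.461 to 0.516), a log2 difference of -1.02 just past the threshold, and with 3 other scalings of the libraries it was just short of it, at -0.93 to -0.997. Reads of Klf5 across exon junctions did not show this difference (ratio 0.955, interval 0.791 to 1.15).

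Tfap2c (chromosome 2, 172549593 to 172558622, plus strand) and Tfap2a (chromosome 13, 40715302 to 40738376, minus strand) encode AP-2 factors, of which TFAP2C acts in the trophectoderm and its stem cells. Tfap2c had 18.7, 17.9 and 13.5 RPKM in the dormant, reactivating and reactivated libraries (803, 853 and 777 exon reads). Tfap2a had 10.6, 8.30 and 8.26 RPKM (523, 454 and 547 reads). For Tfap2c the 12 h value was the low one, whereas Tfap2a was lower at both times after E2 and 6 h and 12 h could not be distinguished by counting error (ratio 0.996, interval 0.878 to 1.13). Neither passed the size rule, with log2 differences of -0.45 and -0.33 at 12 h against dormant.

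Hand1 (chromosome 11, 57828705 to 57832818, minus strand) encodes the basic helix-loop-helix factor of giant cells. It was the lowest of the 10 in every library, with 0.53 RPKM in the dormant, 1.25 in the reactivating and 0.93 in the reactivated library, from 15, 39 and 35 exon reads. The 6 h value was the highest of the 3, with a ratio to dormant of 2.34 (1.26 to 4.57). On the log2 scale with 1 RPKM added this was 0.56, which was not called.

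**Figure D2:**
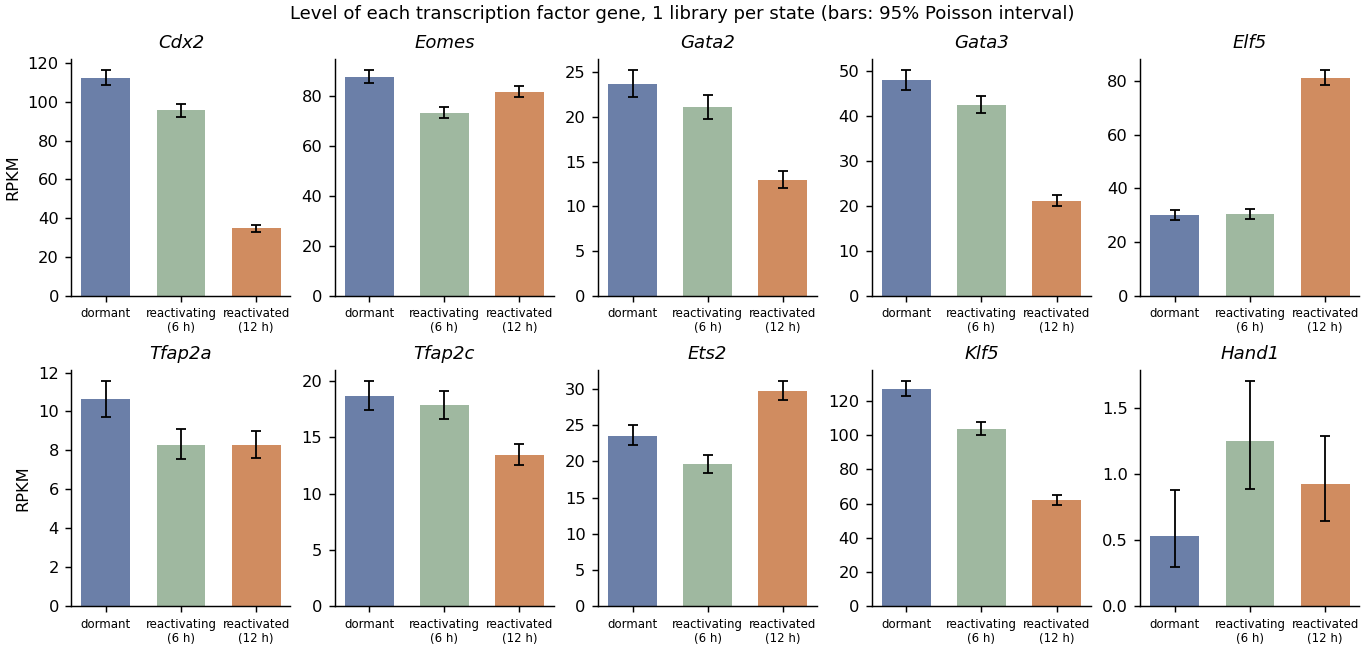
RPKM of each factor gene in the dormant, reactivating and reactivated library, 1 library per state, with error bars that give the exact 95% Poisson interval of its exon reads. Elf5 is near 30 RPKM in the first 2 states and at 81.3 in the third, Cdx2, Gata3, Gata2 and Klf5 are lowest in the third, and Eomes stays between 73.4 and 87.9; each panel has its own axis.

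The order of the factors by level was the same in the dormant and the reactivating library and changed by 12 h. It ran Klf5, Cdx2, Eomes, Gata3, Elf5, Gata2, Ets2, Tfap2c, Tfap2a and Hand1 in both, and only Gata2 and Ets2 were neighbours whose ratio could not be told from 1 by counting error (1.01, interval 0.925 to 1.10, in dormant blastocysts). In reactivated blastocysts Eomes and Elf5 led, with a ratio of 1.01 (0.966 to 1.05), followed by Klf5, Cdx2, Ets2, Gata3, Tfap2c, Gata2, Tfap2a and Hand1. Tfap2c and Gata2 were the other pair there that could not be told apart (1.04, 0.937 to 1.15). Summed over the 10 genes the level was 483 RPKM in dormant blastocysts, 414 in reactivating and 346.5 in reactivated ones. The sum is weighted to the most abundant genes, and the median over the 10 was 26.9, 25.8 and 25.4 RPKM in the same order.

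**Figure D3:**
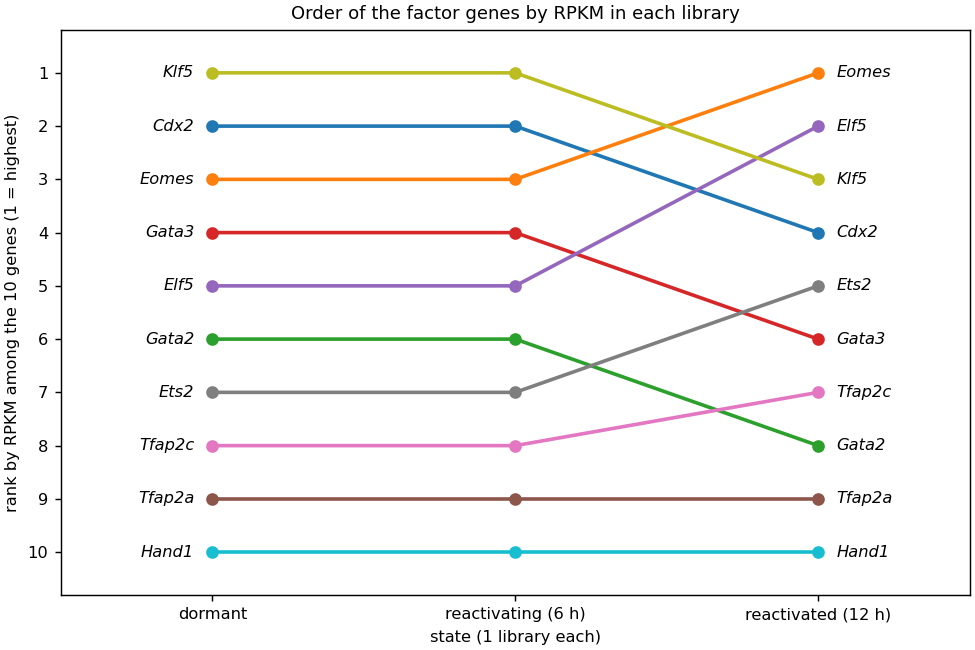
Rank of each factor gene by RPKM among the 10 (1 is the highest), in the dormant, reactivating and reactivated library. Ranks are identical in the first 2 states, and in the third Eomes and Elf5 take ranks 1 and 2 while Klf5 and Cdx2 move to 3 and 4.

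Intron reads, which come mostly from RNA not yet spliced, were counted separately from exon reads. Cdx2 had 302 intron reads in the dormant, 373 in the reactivating and 135 in the reactivated library. At 12 h its intron reads, scaled to the depth of the library, were at 0.333 of the dormant value (0.269 to 0.409), next to 0.309 for exon reads. Gata3 (1176, 1196 and 829 intron reads) and Klf5 (1517, 1543 and 1051) were also lower in both classes, at 0.524 and 0.515 for introns beside 0.440 and 0.488 for exons. In these genes the lower level at 12 h was thus present in both classes of reads.

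For Elf5 and Ets2 the classes differed. Elf5 had 200 intron reads in dormant blastocysts, 183 in reactivating and 380 in reactivated ones, a ratio of 1.41 (1.19 to 1.69) at 12 h where exon reads gave 2.70. Intron reads of Ets2 numbered 180, 144 and 171, a ratio of 0.707 (0.570 to 0.876) where exon reads gave 1.26 (1.17 to 1.36). The exon ratio over the intron ratio was 0.93 on the log2 scale for Elf5 and 0.84 for Ets2, above 92.9% and 89.7% of the 4306 protein-coding genes with enough reads in both classes (at least 100), whose median was 0.22 and whose middle 95% ran from -0.82 to 1.22. Both factors thus lay high within the range of other genes, not outside it. Over all genes, introns held 27.7% of the reads in the dormant library, 25.1% in the reactivating one and 23.5% in the reactivated one.

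At 6 h, Cdx2, Eomes and Gata2 had exon ratios to dormant of 0.851, 0.835 and 0.889 and intron ratios of 1.11, 1.08 and 1.17. The intron intervals of all 3 include 1 (0.953 to 1.30, 0.918 to 1.28 and 0.935 to 1.46), and the exon intervals lie below it. Their exon ratios over intron ratios were -0.39, -0.38 and -0.39 on the log2 scale. These lay low within the middle 95% of 4397 protein-coding genes (-0.60 to 0.91, median 0.14). In dormant blastocysts the share of a gene's own reads that lay in introns ran from 5.47% for Eomes to 37.7% for Gata3. The exact binomial intervals of these shares were 4.84 to 6.15 and 36.0 to 39.4. Such a share depends on intron length, 4229 bases beside 3691 of exon in Eomes and 18308 beside 2871 in Gata3. Per length, intron reads came to 0.0505 of exon reads in Eomes and 0.0948 in Gata3. The extremes per length were Elf5 (0.0191) and Tfap2a (0.128), leaving out Hand1 with its 4 intron reads.

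**Figure D4:**
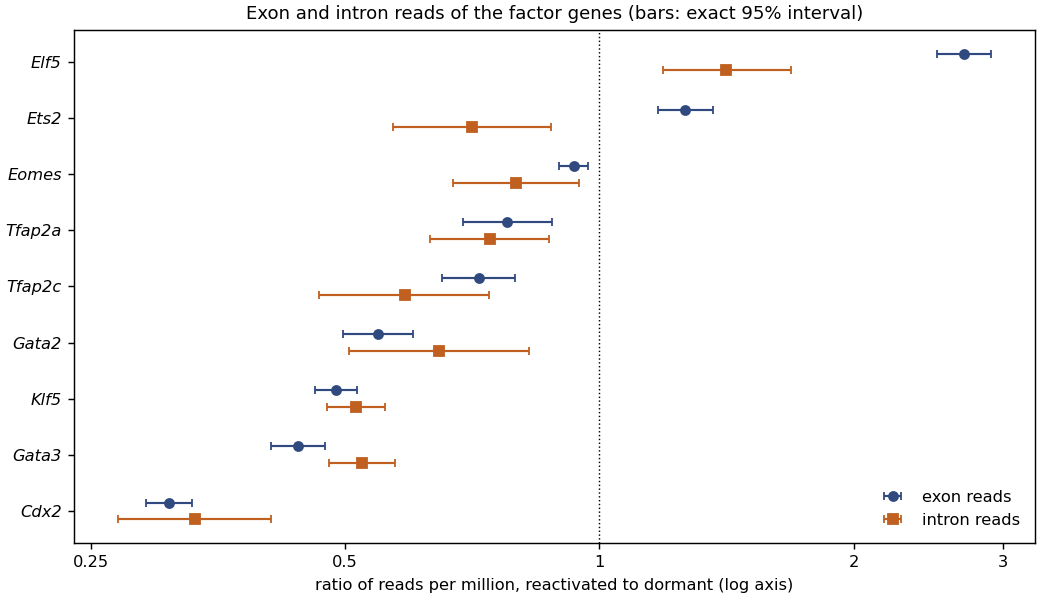
Ratio of depth-scaled reads in reactivated to dormant blastocysts for exon reads (circles) and intron reads (squares) of each factor except Hand1, on a log axis, with exact 95% intervals of the ratio. Cdx2, Gata3 and Klf5 lie near 0.5 or below in both classes, while Elf5 (2.70 and 1.41) and Ets2 (1.26 and 0.707) have exon ratios well above their intron ratios.

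Reads across exon junctions, a small part of the reads counted, followed the exon total at 12 h against dormant for Elf5 and Cdx2 and not for Klf5. Junction reads of Elf5 numbered 194, 179 and 580 in the dormant, reactivating and reactivated libraries and those of Cdx2 177, 115 and 62, with ratios at 12 h against dormant of 2.22 (1.89 to 2.63) and 0.261 (0.192 to 0.350). At 6 h the junction ratio of Cdx2 was 0.585 (0.458 to 0.744), below its exon ratio of 0.851 (0.811 to 0.893). Junction ratios at 6 h were below 1 for Eomes (0.695, 0.598 to 0.807), Gata3 (0.522, 0.375 to 0.720) and Tfap2a (0.459, 0.277 to 0.742). That of Klf5 was above 1 (1.42, 1.19 to 1.70), and the intervals of Gata2, Elf5, Tfap2c and Ets2 included 1. At 6 h all these factors had gaps between junction and exon ratios within the middle 95% of protein-coding genes (-0.94 to 0.97). Klf5 had 201, 317 and 258 such reads, with its highest count at 6 h and a ratio of 0.673 from 6 h to 12 h near its exon ratio of 0.598, beside an exon ratio of 0.488 at 12 h against dormant. The gap between its junction and exon ratios at 12 h against dormant was 0.97 on the log2 scale, above 98.5% of the 5805 protein-coding genes with at least 20 junction reads and past the middle 95% of them (-0.92 to 0.88). Between 6 h and 12 h, Gata3 (62 and 78 junction reads) and Gata2 (32 and 48) had gaps of 1.07 and 1.01, also past the middle 95% there (-0.83 to 0.79), on small counts. Gata3 had 107 junction reads in the dormant library, and its junction ratio from 6 h to 12 h was 1.04 (0.735 to 1.475). In this class its lower value was thus present at 6 h. The part that the position of reads along these genes plays in their RPKM was not tested.

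Reads on the opposite strand were few for the factors. They numbered from 0 to 42 per gene and library, and together came to 0.577%, 0.747% and 0.722% of the reads of the factors in the dormant, reactivating and reactivated libraries, against 3.86%, 4.75% and 4.87% over all genes. Antisense genes of GENCODE M21 overlap Eomes, Gata3 and Tfap2a, and no factor had more than 24 opposite-strand reads in the dormant library.

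The genes most like each factor were taken as those with the smallest distance over the log2 differences at 6 h and at 12 h against dormant, among 6780 protein-coding genes that reached 5 RPKM in some library. With 3 libraries many genes share a pattern, so the number of genes within a distance of 0.1 says how common each pattern is. Elf5 had 3 genes that near, Cdca5, Baz1a and Dtl, and Cdx2 had 6, of which Jund, Dap and Limk2 were nearest. Klf5 had 20 (nearest Atn1, Coro7 and Pias3), Gata3 had 22 (Leng8, Akap12 and Jph1) and Gata2 had 51 (Vps13d, Hgs and Nicn1). The patterns of Ets2 (61 genes), Tfap2a (67), Eomes (96) and Tfap2c (156) were more common. Among the factors themselves Gata3 and Klf5 were the nearest pair, at 0.17.

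Genes that act before the factors were read as a list of 21 Hippo and Notch genes. At 12 h against dormant, 0 were higher and 3 of 20 tested were lower, with a list median of -0.40 against -0.07 over all genes tested, of which 7.66% were lower, and at 6 h 0 of 21 passed. With a pseudocount of 0.1 or none 5 were lower at 12 h, with CPM 6 and with intron reads 0. Over all genes, lower calls moved as well, from 922 of 12037 to 1630 of 12037 with a pseudocount of 0.1. They came to 1210 of 10656 with none and 1388 of 12428 with CPM. With intron reads only 20 genes were higher and 71 lower of 12159. The pseudocount of 1 weighs more on the low density of introns, so a count of 0 there tells little for any list. Tead2, a DNA-binding partner of YAP, had 37.4, 38.2 and 13.4 RPKM in the dormant, reactivating and reactivated libraries, a log2 difference of -1.42 at 12 h. Amotl2, an angiomotin that holds YAP in the cytoplasm, had 19.5, 23.9 and 8.35 RPKM (-1.14), and Vgll4, which competes with YAP for TEAD proteins, 10.7, 7.93 and 3.61 RPKM (-1.35). Tead4, the TEAD protein needed for trophectoderm, had 19.1, 20.6 and 13.4 RPKM (-0.48) and Yap1 17.5, 16.1 and 13.4 RPKM (-0.36), neither past the threshold.

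Other transcription factors of trophoblast leaned to lower values at 12 h. Of 22 tested, 0 were higher and 5 lower, with a median of -0.67, beside 7.66% lower over all genes, and 0 of 24 passed at 6 h. The count of lower genes depends on the processing. It was 3 with each of 3 other scalings of the libraries and 10 with a pseudocount of 0.1 or none. It was 9 with CPM, 8 after subtraction of opposite-strand reads and 0 with intron reads. Over all genes, the 3 scalings gave 777 lower of 12092, 779 of 12090 and 881 of 12085. Subtraction of opposite-strand reads gave 1302 of 11350, and the counts over all genes with the other settings are given above. Tfeb, a lysosomal regulator needed in the placenta, had 31.0, 29.2 and 7.74 RPKM (-1.87 at 12 h), and Junb, an AP-1 subunit needed for placental vessels, 47.2, 42.4 and 12.5 RPKM (-1.84). The homeobox gene Msx2 (-1.22), the grainyhead gene Grhl2 and the helix-loop-helix gene Bhlhe40 (both -1.01) were the others. Paralogues of the factors gave 0 higher and 3 lower of 13 tested (median -0.39, and 1 lower of 15 with intron reads). These were Klf3 (17.9, 14.4 and 5.71 RPKM), Klf2 (7.45, 6.42 and 2.12) and Elf4 (7.79, 7.02 and 3.12), while Elf3, the ETS gene with the highest level in this list, had 175, 159 and 154 RPKM and Cdx1 21.7, 26.7 and 24.9. Where Elf5 was at 1.40 on the log2 scale at 12 h, Elf1, Elf2, Elf3 and Elf4 were at -0.12, -0.39, -0.18 and -1.09.

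Products of the trophectoderm went both ways at 12 h, with 4 higher and 4 lower of 32 tested (median -0.17, and 1 higher and 0 lower of 31 with intron reads), and 0 of 32 passed at 6 h. Over all genes tested at 12 h, 5.27% were higher and 7.66% lower, with a median of -0.07. At 6 h these shares were 2.68% and 3.07%. The higher genes were Krt19, a keratin (16.03, 17.8 and 123 RPKM), Plac1, a placental surface protein (3.02, 4.61 and 24.2), Tinagl1, a matrix protein (76.7, 89.6 and 249), and Ocln, the tight junction protein occludin (24.3, 25.9 and 70.8). The lower genes were Wnt6 (26.1, 23.9 and 7.03 RPKM), the water channel gene Aqp8 (59.4, 52.9 and 19.4), the endocytic adaptor gene Dab2 (138, 157 and 53.2) and Ptges, a prostaglandin E synthase gene (14.4, 13.9 and 6.39). Polar trophectoderm and stem cell genes, a list that includes Tfap2c, gave 0 of 14 in either direction at 12 h, among them Fgfr2, the FGF4 receptor gene, at 54.5, 51.6 and 34.5 RPKM (-0.64). Giant cell and later trophoblast genes were mostly below 1 RPKM, with 5 of the 19 in the tables tested and 0 past the threshold, and Prl3d1, an early giant cell hormone gene, had 1.38, 1.10 and 3.08 RPKM (0.78).

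**Figure D5:**
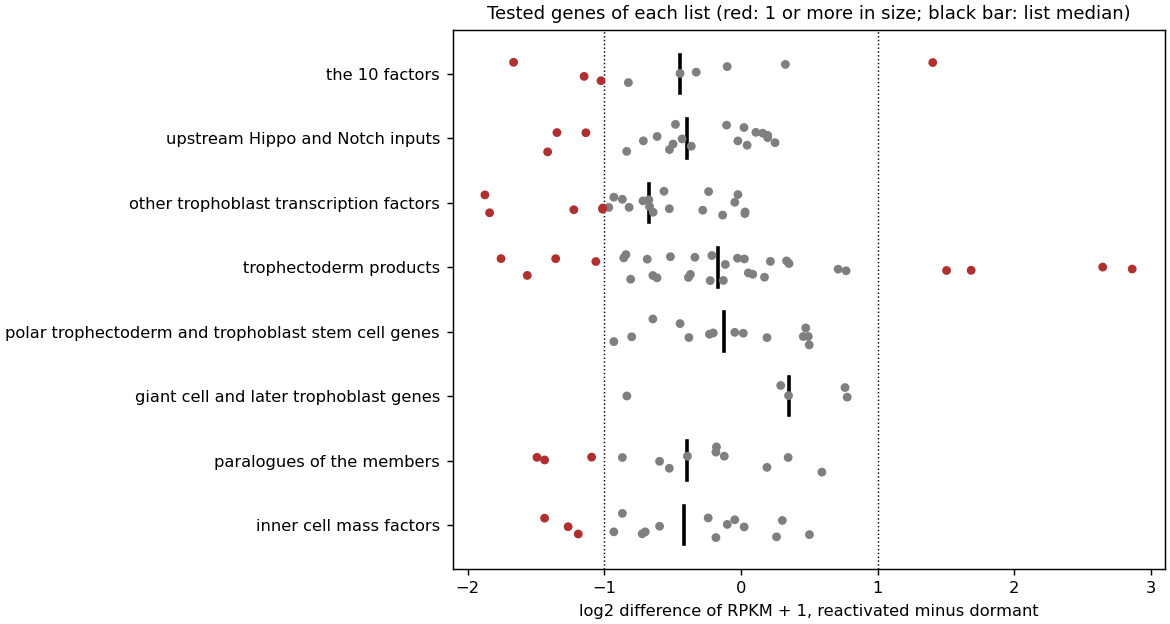
Each point is a tested gene of a list and its log2 difference of RPKM + 1, reactivated minus dormant, with red for a size of at least 1 and a black bar at the list median; vertical scatter within a row only separates points. The 9 factors tested have 1 point to the right of the threshold and 3 to the left, and the trophectoderm products 4 on each side.

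Factors of the inner cell mass and its endoderm, measured in the same embryos, gave 0 higher and 3 lower of 16 at 12 h (5 lower with a pseudocount of 0.1, with none or with CPM), with a median of -0.42, beside 7.66% lower over all genes and 5.53% over protein-coding genes. Over all genes, lower calls were also more frequent with those other settings, as given above. The lower genes were Klf2, Tbx3 (21.1, 15.8 and 8.21 RPKM) and Sall4 (104.5, 85.7 and 45.2 RPKM). Pou5f1, Zfp42 and Nanog were above 0, at 0.50, 0.30 and 0.26 on the log2 scale. Some genes stand in more than 1 list, among them Klf2, Klf4, Esrrb and Sox2.

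Between 6 h and 12 h, 3.82% of all genes tested were higher and 7.63% lower. With a pseudocount of 0.1, 756 genes were higher and 1618 lower of 12065. Without one these were 439 and 1233 of 10744, and with CPM 489 and 1462 of 12612. The Hippo and Notch list had 0 higher and 2 lower of 21 tested, Tead2 and Amotl2, and 6 lower with a pseudocount of 0.1, with none or with CPM. Other trophoblast factors had 0 and 6 of 24, led by Tfeb, Junb, Msx2 and Ovol2. Paralogues had 0 and 2 of 13, Klf2 and Klf3, and 2 higher and 3 lower with a pseudocount of 0.1 or none. Inner cell mass factors had 0 and 2 of 16, Klf2 and Esrrb, and 1 lower with each of the 3 other scalings. Trophectoderm products had 5 higher, led by Krt19, Plac1, Tinagl1 and Ocln, and 6 lower, led by Wnt6, Dab2, Aqp8 and Ptges, of 32, and 5 higher and 3 lower with those scalings. With intron reads, trophectoderm products had 0 and 2 of 31 and other trophoblast factors 0 and 0 of 20, where 10 and 54 of all 12394 genes passed. Polar trophectoderm and stem cell genes had 1 higher and 1 lower of 13 tested, and 2 higher and 0 lower with each of the 3 other scalings. Esrrb, a nuclear receptor gene of stem cells that also stands in the polar list (15.6, 17.1 and 7.70 RPKM), was lower at -1.06, a call lost under all 3 other scalings. Giant cell and later trophoblast genes had 1 higher and 0 lower of 5 tested, the prolactin-family gene Prl7a1 (10.4, 5.17 and 18.4 RPKM).

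Genes that mark other cells of the uterus moved with the states as well. The 15 uterine epithelium genes summed to 198, 176 and 144 RPKM in the dormant, reactivating and reactivated libraries (medians 0.26, 0.91 and 0.94 RPKM), and 2 were lower and 1 higher of 7 tested at 12 h, namely Lif (35.8, 34.0 and 9.55 RPKM), Wfdc2 and Spink1. The 9 uterine stroma genes summed to 8.78, 7.47 and 6.62 RPKM, with 0 of 2 past the threshold. The 14 blood and immune genes summed to 32.4, 24.2 and 44.8 RPKM, with S100a8 and S100a9 higher and Laptm5, Cd14 and Tyrobp lower of 6 tested at 12 h. Over all genes tested at 12 h, 5.27% were higher and 7.66% lower. At 6 h, 1 gene of these 3 lists passed, the neutrophil gene Ly6g, from 0 exon reads in the dormant and 7 in the reactivating library, with overlapping intervals (0 to 0.778 and 0.534 to 2.74 RPKM). Few reads also lie behind Spink1 (1 dormant and 13 reactivated) and Tyrobp (9 dormant and 0 reactivated). The part of other cells in the differences of the factors was not tested.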

How the data were processed

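RNA of 3 pools of mouse blastocysts (dormant, reactivating, reactivated) was measured, 1 library each. Per the file headers, the authors deposited for each library a table of read counts per gene, split into exon, intron, junction and opposite-strand reads, and an RPKM per gene. The submitters' processing notes name build GRCm38. Aligner, read counter and gene annotation were not given in the sources used here. In the deposited counts, junction reads lie within the exon and intron reads for 100.0% of genes. RPKM followed from exon reads with library totals of 14118723, 15687239 and 18982195 reads, taken from genes with at least 200 reads.

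From the deposited RPKM, log2 differences with a pseudocount of 1 were computed over all genes, which understates changes of low genes, and genes were called at a size of 1 with 1 RPKM or more in the higher of a pair of libraries. Intervals at 95% are exact Poisson for counts, exact conditional binomial for ratios and exact binomial (Clopper-Pearson) for shares. With 1 library per state no test was run and no SD exists. The members and the 10 gene lists were chosen with earlier results of these data known. All 10 factors are named with their values; per list, genes past the size rule are named, up to 4 per direction by size, without some list genes whose values are not reported here, and a few others (such as Bhlhe40) were named after their values were seen. For likeness, the 3 nearest genes are named. Coordinates come from GENCODE M21 (GRCm38) and promoters from RefSeq (GRCm38.p6), with 7 of 10 factors matched and Tfap2c, Klf5 and Hand1 without an entry. Python 3.11.15, numpy 2.4.6, scipy 1.17.1 and pandas 2.3.3 were used, and the size rule was tested on simulated data. The 10 alternatives changed the pseudocount, unit, scaling, low-value filter, read class and strand.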

Additional observations from a re-analysis of the deposited data

How the results depend on the processing

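No paired analysis was possible because each state had 1 library. Of the 10 alternatives, those that changed the number of factors past the size rule by more than 1.5 times were few. With intron in place of exon reads, 1 factor (Cdx2) passed at 12 h against dormant, where exon reads gave 4, and 1 (Cdx2) at 12 h against 6 h, where exon reads gave 2; the pseudocount of 1 weighs more on the low density of introns by construction. With a pseudocount of 0.1, 1 factor passed at 6 h against dormant (Hand1, 1.10 on the log2 scale, from 15 and 39 reads), where 0 had passed. Cdx2 passed in 10 of 10 alternatives at 12 h against dormant, Elf5 and Gata3 in 9 and Klf5 in 6. The alternatives that changed only the low-value filter are among these. They leave the values of such well-measured genes as they were and so could not alter a call. Klf5 stood at -0.93 with upper-quartile scaling, -0.94 with median-ratio scaling, -0.997 with the total over protein-coding genes and -0.82 with intron reads. Gata3 at 12 h against 6 h passed in 3 of 10. Scaling moved the median of all genes at 12 h against 6 h from -0.13 to 0.02 with upper quartiles, and with that scaling Cdx2 stood at -1.27 in place of -1.43 and Elf5 at 1.55 in place of 1.39. Over all genes in that comparison, 461 genes were higher and 920 lower (33.4% of calls higher), against 678 and 663 (50.6%) with upper quartiles, 665 and 676 (49.6%) with median ratios and 583 and 750 (43.7%) with the protein-coding total. A share of intron reads with junction reads counted apart was not run, since junction reads lie within the other classes. Depth limits Hand1, with 15 to 39 exon reads per library.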
